A study of Mus musculus with 6 samples.

Results

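The postsynaptic density (PSD) scaffold and signalling genes are a list of 31 mouse genes that encode the scaffold proteins, small GTPase regulators, actin-binding proteins and anchors found beneath excitatory synapses. Members were chosen by name. Each gene identifier in the deposited tables was matched to its symbol in the GENCODE M21 annotation of GRCm38 (mm10), and all 31 were found among the 31053 listed genes. The rule uses no measured value, but the members were chosen with earlier results of these data known. In every library each gene has one value, its EPR, the number of C-to-U edits divided by the number of reads counted for the gene.

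At an excitatory synapse, MAGUK proteins encoded by the *Dlg* genes bind glutamate receptors at the membrane. SAPAP proteins, encoded by the *Dlgap* genes, link them to Shank proteins, which in turn bind Homer proteins and the actin cytoskeleton, and regulators of Arf, Rac and Rap GTPases attach to this layered scaffold. Several of these mRNAs are known to be carried into dendrites, and the abundance of their proteins in spines is known to change with synaptic activity.

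The 6 libraries were bulk RNA-seq of primary cortical neurons from wild-type C57BL/6J mouse embryos at E18, 3 with RPL10A-STAMP and 3 with RPL22-STAMP. In Ribo-STAMP, the cytidine deaminase rAPOBEC1 is fused to a ribosomal protein, so that transcripts held by ribosomes acquire C-to-U edits that RNA-seq reads out. Here the partner was the mouse large-subunit protein RPL10A or RPL22, as in the TRAP and RiboTag methods. According to the study's methods, RPL10A was joined to the C terminus of the enzyme and RPL22 to its N terminus. The partner and the side of the fusion therefore cannot be told apart. The comparison asked how the editing of each gene differs between these fusions. Both groups had the same treatment: floxuridine at DIV 3 (day in vitro), AAV infection at DIV 6, Dox at 1 µg per ml for 48 h and collection at DIV 14, with 600000 cells per well. The fusion was under a Tet-responsive promoter and its transactivator under the human synapsin promoter, so that editing was driven in neurons, whereas the reads came from every cell in the well. Libraries without an editor were not analysed here, and the share of each EPR that does not come from the fusion is unknown. The labels only number the replicates, while the study's methods call them biological and a passage of its text technical. As none of these says that they were separate cultures, p-values measure the spread between libraries, which may be technical.

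The tables hold ratios without their edits and reads, which leaves the depth of a value unknown and allows no counting interval. Of 13 neuron markers, 13 had an EPR above 0 in all 6 libraries, as had 6 of 10 astrocyte markers, 1 of 10 oligodendrocyte lineage markers and 0 of 10 microglia markers. The median EPR of these 6 astrocyte markers was 0.0418, against 0.0252 for the 13 neuron markers and 0.0185 for the PSD genes. Genes at 0 in any library are left out of these medians. Of the microglia markers, 6 were listed at 0 in all 6 libraries.

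Among the 31 genes, 30 had an EPR above 0 in all 6 libraries. The exception was *Homer3*, described below with its family. The median PSD gene had a higher EPR than the median gene in each library. The 30 genes had a median EPR of 0.0148, 0.0186 and 0.0206 in RPL10A-STAMP replicates 1, 2 and 3, where the median over the 8046 genes above 0 in all 6 libraries was 0.0120, 0.0153 and 0.0161. With RPL22-STAMP the members' median was 0.0127, 0.0183 and 0.0157 and the median gene 0.00907, 0.0129 and 0.0112. In bulk libraries an EPR is a mean over all cells, and fewer edited cells cannot be told apart from fewer edits per cell. In each library between 19 and 23 of the 30 genes lay above the median gene.

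Mean EPR of the 30 genes spanned 12.8-fold in the RPL10A-STAMP libraries, from 0.00609 (*Synpo*) to 0.0778 (*Shank3*), and 9.18-fold in the RPL22-STAMP libraries, from 0.00743 (*Synpo*) to 0.0682 (*Nrgn*). The order of the genes differed between the variants: Spearman's rho of the mean EPR was 0.472 across the 30 genes and 0.653 across the 8046 genes, given as a description because all genes share the same libraries. Replicates of the PSD genes were closer to each other in the median. The median coefficient of variation of the PSD genes was 16% between RPL10A-STAMP libraries and 23.9% between RPL22-STAMP libraries, beside 28.0% and 32.1% for all tested genes. The sets were not matched for EPR or depth. Over the 6 libraries the median of the mean EPR was 0.0185 for the PSD genes and 0.0135 for all tested genes.

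**Figure D1:**
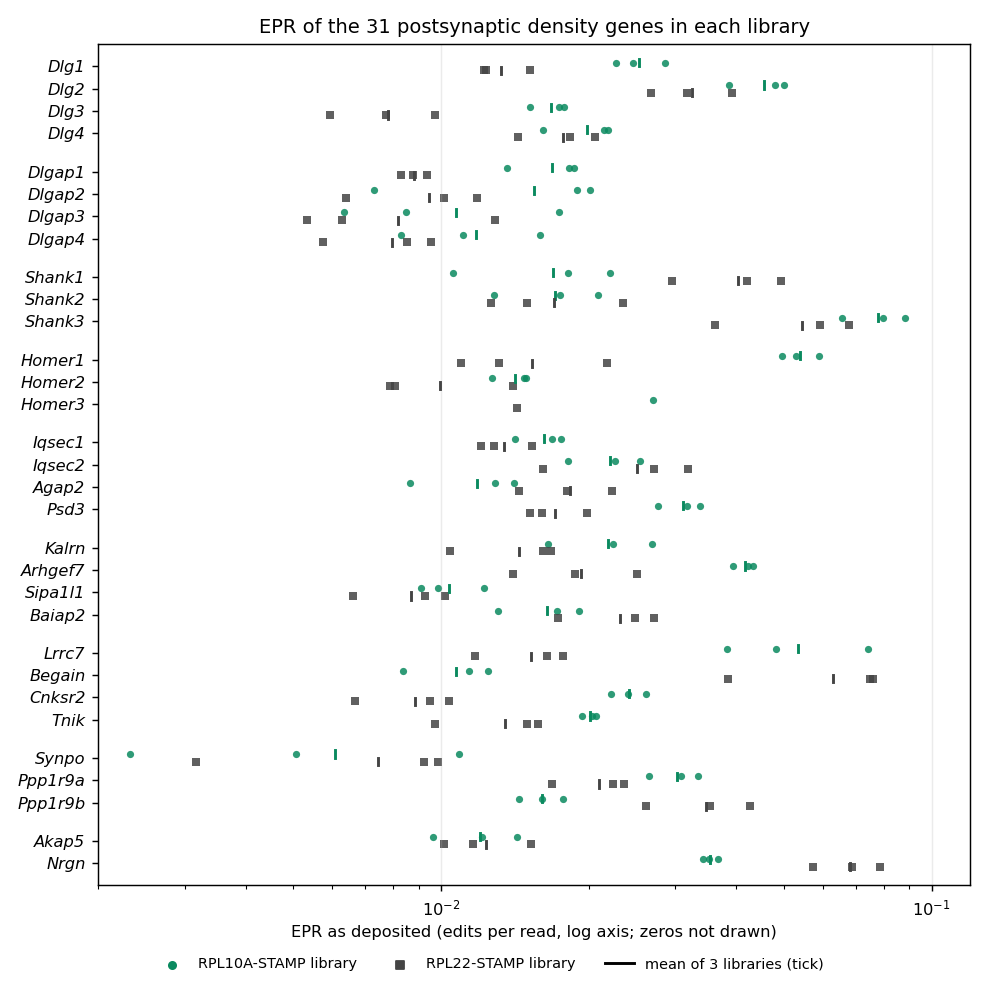
EPR as deposited (edits per read, log axis) of the 31 postsynaptic density genes, grouped by role from MAGUK scaffolds at the top to *Akap5* and *Nrgn* at the bottom. Circles are the 3 RPL10A-STAMP libraries, squares the 3 RPL22-STAMP libraries and ticks their means, and values of 0 are not drawn, which leaves *Homer3* with 1 library per variant. *Begain*, *Shank1*, *Nrgn* and *Ppp1r9b* lie further right with RPL22-STAMP, and *Homer1*, *Lrrc7* and *Arhgef7* with RPL10A-STAMP.

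Of the 30 tested genes, 9 differed between the variants (30%), where 14.3% of all 8046 genes did. For calls and log2 fold changes, here and below, EPR was first scaled so that the median of the 8046 genes was equal in every library. Then log2(EPR + 0.01) was fitted with limma, and a gene is called different at a Benjamini-Hochberg adjusted p under 0.05 over all 8046 genes. EPR values, their means and ratios of means are given as deposited, unless scaling is named. Positive log2 fold changes mean a higher value with RPL10A-STAMP, and the added 0.01 shrinks them for genes with low EPR. *Homer1*, *Lrrc7* and *Arhgef7* were higher with RPL10A-STAMP, 3 of 30 genes where 8.51% of all genes were called in that direction. *Begain*, *Shank1*, *Nrgn*, *Ppp1r9b*, *Agap2* and *Baiap2* were higher with RPL22-STAMP, 6 of 30 where 5.77% of all genes were. The median log2 fold change was 0.08 over the 30 genes and -0.01 over all genes, with 16 positive and 14 negative values. The spread was wider, with an SD of 0.65 among the PSD genes and 0.52 among all tested genes. After scaling, no library of one variant reached into the range of the other for 19 of the 30 genes, against 37.1% of all genes. Of these 19, 9 were higher with RPL10A-STAMP and 10 with RPL22-STAMP, where as deposited 10 and 5 genes were so separated. With 1 library left out 5 members were called, *Begain*, *Homer1*, *Nrgn*, *Ppp1r9b* and *Shank1*, except without RPL22-STAMP replicate 1, where 8 were. The 21 genes that were not called had log2 fold changes between -0.37 and 0.63.

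**Figure D2:**
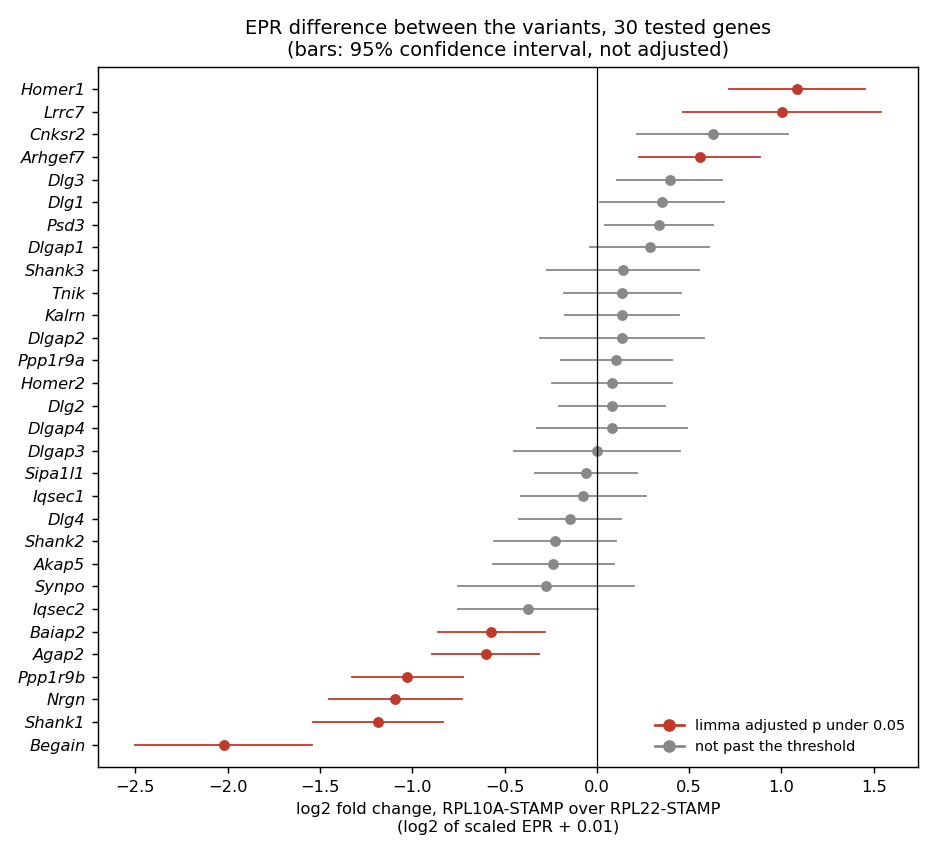
Log2 fold change between the variants (positive: higher with RPL10A-STAMP) for the 30 tested genes, in order of size, on the scale of log2(scaled EPR + 0.01). Points are limma estimates from 3 libraries per variant, bars their 95% confidence intervals without adjustment for the number of genes, and red marks the 9 genes past the threshold, from *Begain* at -2.02 to *Homer1* at 1.09.

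Stretches of 90 bases are shown for the 3 genes higher with RPL10A-STAMP and the 3 that differed most in the other direction. Each lies at the centre of the longest coding exon and is an example that need not match the whole transcript. They are read from GRCm38 on the strand of the gene, in 5′ to 3′ direction, and capitals mark each C that follows an A or a T, because rAPOBEC1 is known to prefer an A or a U before the C it deaminates. The deposited values do not say which of these Cs were edited. *Homer1* is shown at chr13:93402089-93402178 (plus strand, exon 9 of 9), *Lrrc7* at chr3:158161028-158161117 (minus strand, exon 22 of 28), *Arhgef7* at chr8:11817727-11817816 (plus strand, exon 16 of 19), *Begain* at chr12:109033624-109033713 (minus strand, exon 7 of 7), *Shank1* at chr7:44353056-44353145 (plus strand, exon 24 of 25) and *Nrgn* at chr9:37546020-37546109 (minus strand, exon 2 of 4).
Homer1: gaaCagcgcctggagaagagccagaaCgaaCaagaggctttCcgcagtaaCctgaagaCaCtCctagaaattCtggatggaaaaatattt
Lrrc7: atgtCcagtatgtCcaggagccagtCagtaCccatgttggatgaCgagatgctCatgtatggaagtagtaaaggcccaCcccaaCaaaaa
Arhgef7: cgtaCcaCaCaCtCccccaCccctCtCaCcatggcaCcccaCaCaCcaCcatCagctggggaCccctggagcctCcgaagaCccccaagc
Begain: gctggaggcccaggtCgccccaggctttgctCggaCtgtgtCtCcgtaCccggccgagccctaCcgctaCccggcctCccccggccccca
Shank1: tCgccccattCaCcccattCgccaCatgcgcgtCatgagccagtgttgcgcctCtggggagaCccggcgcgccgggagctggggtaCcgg
Nrgn: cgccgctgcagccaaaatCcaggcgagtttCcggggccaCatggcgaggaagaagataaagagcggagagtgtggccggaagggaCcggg
In the *Homer1* stretch 9 of 19 Cs follow an A or a T and GC content is 45.6%, whereas in the *Begain* stretch 9 of 42 do and GC content is 74.4%. The *Nrgn* stretch holds the fewest such Cs, 4 of 21. The *Arhgef7* stretch has GC content of 66.7% and 18 of 46 Cs in that context. It differs from the *Arhgef7* transcript with the longest coding sequence, which has 51.9% GC and 44.1% of its Cs in that context. The *Lrrc7* stretch has 8 of 21 and the *Shank1* stretch 9 of 33.

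Of the 4 MAGUK genes 0 were called by limma, and 2 had an unadjusted p under 0.05. *Dlg2* (PSD-93) had the highest mean EPR of the family and the third highest of the list, with 0.0387, 0.0479 and 0.0499 in the RPL10A-STAMP libraries and 0.0268, 0.0391 and 0.0317 in the RPL22-STAMP libraries. These values overlapped as deposited, and the log2 fold change was 0.08 (95% interval -0.21 to 0.37). *Dlg4*, which encodes PSD-95, the most abundant scaffold of the PSD, averaged 0.0198 ± 0.00322 for RPL10A-STAMP, against 0.0177 ± 0.00316 for RPL22-STAMP (SD, n = 3 each). After scaling its RPL22-STAMP libraries were the higher ones, with a log2 fold change of -0.15 (limma adjusted p = 0.441) that was not called. *Dlg3* (SAP102) and *Dlg1* (SAP97) had positive estimates that missed the threshold, 0.39 (limma adjusted p = 0.0722) and 0.35 (limma adjusted p = 0.144).

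Of the 4 SAPAP genes 0 were called by limma, and 0 had an unadjusted p under 0.05, while 3 of them had coefficients of variation above the medians of the list with both variants. *Dlgap3*, one of the 3 least edited genes of the list, gave 0.00635, 0.00847 and 0.0174 with RPL10A-STAMP, against 0.00534, 0.0129 and 0.00627 with RPL22-STAMP. Its libraries overlapped and its interval was wide, -0.45 to 0.45. *Dlgap1* was the most even, at 0.0168 ± 0.00278 and 0.00882 ± 0.000537 (SD, n = 3 each), which did not overlap, with a log2 fold change of 0.29 (limma adjusted p = 0.204).

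The 3 Shank genes, which encode the scaffolds below the SAPAP layer, separated from each other. *Shank1* (ENSMUSG00000038738, chr7:44310253-44360572, plus strand) gave 0.0106, 0.0181 and 0.0221 in the RPL10A-STAMP libraries and 0.0296, 0.0494 and 0.0421 in the RPL22-STAMP libraries. Every RPL22-STAMP library lay above every RPL10A-STAMP library, by 2.38-fold in the mean as deposited. The log2 fold change, after scaling, was -1.19 (SE 0.150, limma adjusted p = 0.00507). *Shank3* was the most highly edited gene of the list, at 0.0658, 0.0881 and 0.0794 with RPL10A-STAMP, against 0.0362, 0.0592 and 0.0679 with RPL22-STAMP. Its libraries overlapped, and its log2 fold change was 0.14 (95% interval -0.27 to 0.55). *Shank2* was nearly level in the mean as deposited, 0.0171 ± 0.00405 against 0.0170 ± 0.00569 (SD, n = 3 each). After scaling its RPL22-STAMP libraries were the higher ones, with a log2 fold change of -0.23 (limma adjusted p = 0.314) that was not called. A share of 3.22% of the exon bases of *Shank1* and 2.95% of those of *Shank3* also lie in a gene on the opposite strand. The library kit kept strand, but the strand setting of the counting is not given in the sources used here.

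Of the Homer genes, whose products join Shank to metabotropic glutamate receptors, *Homer1* (ENSMUSG00000007617, chr13:93299635-93405129, plus strand) had the largest positive difference of the list. It gave 0.0495, 0.0591 and 0.0530 with RPL10A-STAMP, against 0.0110, 0.0218 and 0.0131 with RPL22-STAMP. The lowest RPL10A-STAMP library was above the highest RPL22-STAMP library, and the means as deposited stood 3.52-fold apart. The log2 fold change, after scaling, was 1.09 (SE 0.156, limma adjusted p = 0.00688). *Homer1* gives rise to long and short, activity-induced products, and a value per gene cannot be split between them. *Homer2* was at 0.0141 ± 0.00124 and 0.00997 ± 0.00350 (SD, n = 3 each), with a log2 fold change of 0.08 that was not called. *Homer3* was listed above 0 only in RPL10A-STAMP replicate 2 (0.0270) and RPL22-STAMP replicate 2 (0.0143), and at 0 in the other 4 libraries. Because a 0 can stand for a gene without edits or without reads, it was not tested. In addition, 25.4% of its exon bases lie in a gene on the opposite strand.

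Within a library, ratios of related genes do not depend on how libraries are scaled. The 4 pairs given here were picked after their values were seen, so they are descriptions without a test. *Shank1* over *Shank2* was 0.827, 1.03 and 1.06 with RPL10A-STAMP, against 2.34, 2.11 and 2.82 with RPL22-STAMP. *Shank1* over *Shank3* was 0.161, 0.206 and 0.279 in the former and 0.818, 0.833 and 0.621 in the latter, so that *Shank3* was the more edited gene in all 6 libraries. *Homer1* over *Homer2* was 3.90, 3.96 and 3.59 against 1.36, 1.56 and 1.67. None of these ratios overlapped between the variants. The spinophilin gene *Ppp1r9b* over its paralog *Ppp1r9a*, which encodes neurabin, turned around 1, with 0.545, 0.576 and 0.481 in the RPL10A-STAMP libraries and 1.56, 1.90 and 1.5 in the RPL22-STAMP libraries.

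**Figure D3:**
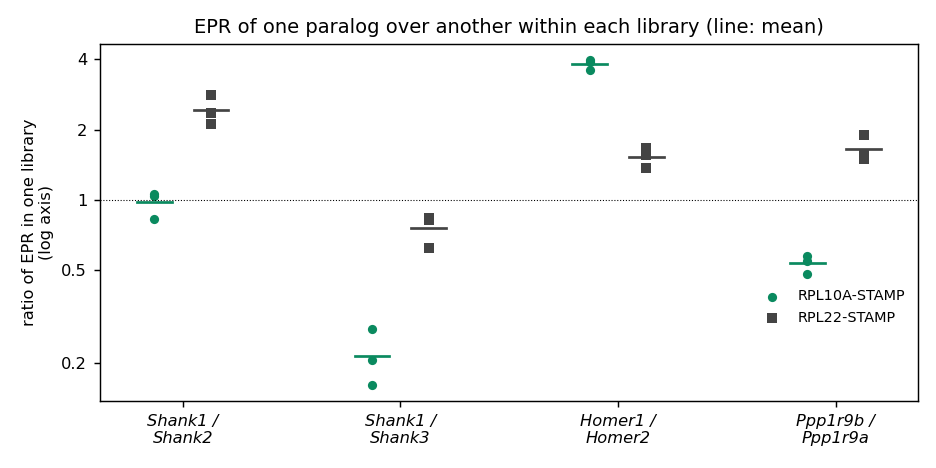
EPR of one paralog divided by that of another within the same library, on a log axis, for 4 pairs picked after their values were seen. Circles are RPL10A-STAMP libraries, squares RPL22-STAMP libraries and short lines the means of 3, and the dotted line marks equal EPR. *Ppp1r9b* over *Ppp1r9a* lies below 1 in the 3 RPL10A-STAMP libraries and above 1 in the 3 RPL22-STAMP libraries.

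Among the 4 regulators of Arf GTPases, which act on membrane traffic in spines, 1 was called. *Agap2* (ENSMUSG00000025422, chr10:127075284-127093169, plus strand), an Arf GTPase-activating protein also known as PIKE, gave 0.00863, 0.0129 and 0.0141 with RPL10A-STAMP, against 0.0144, 0.0224 and 0.0181 with RPL22-STAMP. The groups did not overlap but nearly touched, and the log2 fold change was -0.60 (SE 0.123, limma adjusted p = 0.0220). This call was lost when any 1 of the 6 libraries was left out (limma adjusted p from 0.0504 to 0.0771) and without scaling (-0.37, limma adjusted p = 0.254). The exchange factors *Iqsec1*, *Iqsec2* and *Psd3* had log2 fold changes of -0.07, -0.37 and 0.34, none called. *Psd3* was the most edited of the 4 with RPL10A-STAMP, at 0.0311 ± 0.00306 (SD, n = 3).

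The 4 genes for regulators of Rac, Cdc42 and Rap GTPases and their effectors, which shape the actin of spines, held 1 gene called in each direction. *Arhgef7* (ENSMUSG00000031511, chr8:11727721-11835219, plus strand), the Rac and Cdc42 exchange factor β-PIX, gave 0.0393, 0.0422 and 0.0432 with RPL10A-STAMP, against 0.0141, 0.0251 and 0.0187 with RPL22-STAMP. The RPL10A-STAMP libraries lay close together and above the others, with a log2 fold change of 0.56 (SE 0.139, limma adjusted p = 0.0402), a call that was lost when any 1 library was left out (limma adjusted p from 0.0619 to 0.113). *Baiap2* (ENSMUSG00000025372, chr11:119942763-120006782, plus strand) encodes IRSp53, a Rac and Cdc42 effector that bends membranes, and gave 0.0131, 0.0172 and 0.0191 with RPL10A-STAMP, against 0.0173, 0.0272 and 0.0248 with RPL22-STAMP. These values overlapped as deposited and not after scaling, with a log2 fold change of -0.57 (SE 0.123, limma adjusted p = 0.0255). The call was lost without scaling (-0.32, limma adjusted p = 0.349) and when any library other than RPL22-STAMP replicate 1 was left out (limma adjusted p from 0.0655 to 0.0933). The Rac exchange factor gene *Kalrn* (0.14) and the Rap regulator gene *Sipa1l1* (-0.06) were not called.

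The adaptors held the most negative difference of the list and, after *Homer1*, the next most positive. *Begain* (ENSMUSG00000040867, chr12:109032187-109068217, minus strand), which encodes a PSD-95-associated protein, gave 0.0125, 0.0114 and 0.00835 in the RPL10A-STAMP libraries and 0.0385, 0.0747 and 0.0758 in the RPL22-STAMP libraries. Every RPL22-STAMP library was far above the RPL10A-STAMP libraries, 5.86-fold in the mean as deposited. The log2 fold change of -2.02 (SE 0.203, limma adjusted p = 0.00444) was the largest in size of the 30. In rank, *Begain* moved from the 38.2 percentile of genes above 0 with RPL10A-STAMP to the 96.1 percentile with RPL22-STAMP (means of 3 libraries).

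*Lrrc7* (ENSMUSG00000028176, chr3:158082891-158562221, minus strand), which encodes densin, a binding partner of CaMKII and actinin, differed the other way. It gave 0.0383, 0.0740 and 0.0481 with RPL10A-STAMP, against 0.0165, 0.0117 and 0.0177 with RPL22-STAMP. The groups were clearly apart, 3.50-fold in the mean as deposited, but RPL10A-STAMP replicate 2 was well above the others. The log2 fold change was 1.00 (SE 0.228, limma adjusted p = 0.0299), and the call was lost when any library other than RPL22-STAMP replicate 1 was left out (limma adjusted p from 0.0642 to 0.0872). *Cnksr2*, a scaffold of Ras signalling, narrowly missed the threshold, with 0.0241 ± 0.00197 for RPL10A-STAMP and 0.00886 ± 0.00194 for RPL22-STAMP (SD, n = 3 each), with a log2 fold change of 0.63 (limma adjusted p = 0.0546). It was called without scaling (0.86, limma adjusted p = 0.0182) and without RPL22-STAMP replicate 1 (0.78, limma adjusted p = 0.0425). The kinase gene *Tnik* had the most even values of the list with RPL10A-STAMP, 0.0201 ± 0.000665 (SD, n = 3), and was not called (0.14).

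Of the actin-binding spine proteins, *Ppp1r9b* (ENSMUSG00000038976, chr11:94991035-95006899, plus strand), which encodes spinophilin, a targeting subunit of protein phosphatase 1, gave 0.0144, 0.0177 and 0.0161 with RPL10A-STAMP, against 0.0262, 0.0426 and 0.0354 with RPL22-STAMP. The RPL22-STAMP libraries were all higher, 2.16-fold in the mean as deposited, with a log2 fold change of -1.03 (SE 0.128, limma adjusted p = 0.00490). *Ppp1r9a* was not called, at 0.0302 ± 0.00349 and 0.0210 ± 0.00361 (SD, n = 3 each). *Synpo*, which encodes synaptopodin of the spine apparatus, was the least edited gene of the list, and of the 30 genes the one with the widest relative spread with RPL10A-STAMP, at 0.00233, 0.00507 and 0.0109 with RPL10A-STAMP, against 0.00317, 0.00924 and 0.00987 with RPL22-STAMP. Its groups overlapped, and the 95% interval of its log2 fold change ran from -0.75 to 0.20.

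*Nrgn* (ENSMUSG00000053310, chr9:37544492-37552904, minus strand) encodes neurogranin, a small protein that holds calmodulin near the postsynaptic membrane, and had the shortest coding sequence of the list, 237 bases. It gave 0.0368, 0.0342 and 0.0351 with RPL10A-STAMP, against 0.0573, 0.0784 and 0.0688 with RPL22-STAMP. Both groups were high and did not overlap, with a 1.93-fold difference of means as deposited and a log2 fold change of -1.09 (SE 0.153, limma adjusted p = 0.00637). *Akap5*, which anchors protein kinase A and calcineurin at the PSD, was at 0.0120 ± 0.00232 and 0.0123 ± 0.00262 (SD, n = 3 each) and was not called (-0.24).

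Sequence composition varied widely among the PSD genes, from 37.8% GC (*Homer1*) to 63.9% (*Dlgap3*), with a raised median. The GC content of the transcript with the longest coding sequence had a median of 54.7% over the 30 genes and 49.0% over the 7921 tested genes with such a transcript. The median was 53.0% for the presynaptic genes and 51.1% for the other PSD genes described last, and 4 of the 30 genes lay among the 1980 tested genes with the lowest GC content. Their coding sequences were also long, with a median of 3039 bases against 1482. Within the list the log2 fold change was lower the higher the GC content, with Spearman's rho of -0.68 over the 30 genes and -0.47 over all 7921 genes, given as a description because genes share the 6 libraries. The share of Cs that follow an A or a T went the other way, with rho of 0.61 over the 30 genes and 0.44 over all genes. The number of such Cs per kb of transcript showed little relation, with rho of -0.055 over the 30 genes and -0.12 over all genes. Length did not order them, with rho of 0.06 for the coding sequence.

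The 6 genes called higher with RPL22-STAMP all lay among the 1981 tested genes with the highest GC content, 53.6% to 72.9%, which held 17 of the 30 PSD genes. Of these 1981 genes, 12.6% were called higher with RPL22-STAMP and 0.959% with RPL10A-STAMP. *Homer1*, at 37.8% GC, had the lowest GC content of the list, and *Lrrc7* and *Arhgef7* both lay near 51.9%. The transcript used has no 3′ untranslated region for *Lrrc7*. That region has 21 bases for *Kalrn*, 65 for *Ppp1r9a* and 82 for *Psd3*, where the median of the list was 1500.5. The GC content of these genes therefore describes little beyond the coding sequence and may differ from that of the transcripts in the cells. Some genes of like composition, picked after their values were seen, had unlike estimates. *Shank3* at 62.4% GC and *Dlgap3* at 63.9% had log2 fold changes of 0.14 and -0.0012. Those of *Shank1* at 61.4% and *Begain* at 63.6% were -1.19 and -2.02. Differences from gene to gene were not tested.

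**Figure D4:**
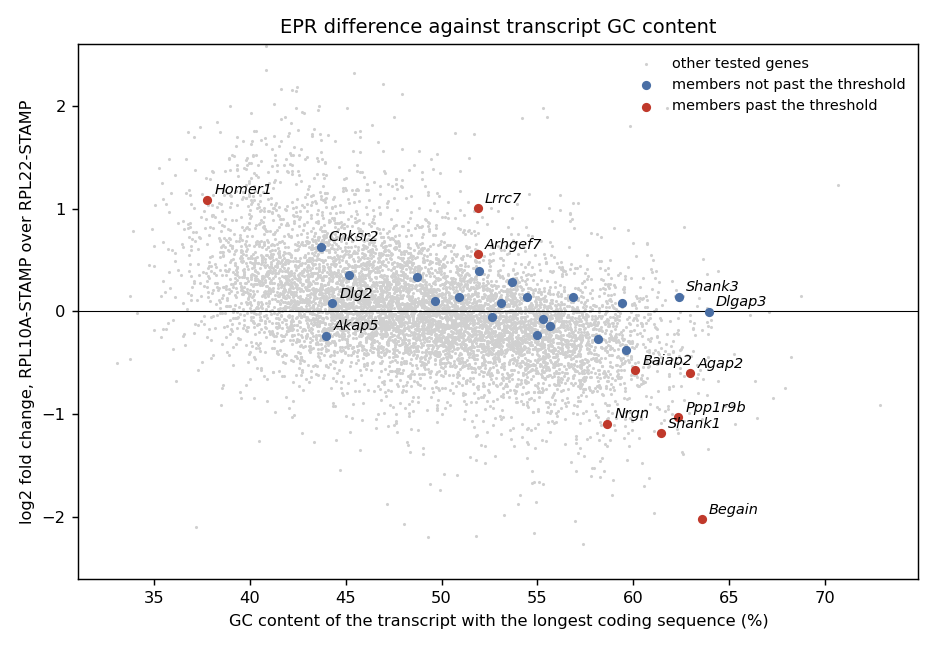
Log2 fold change between the variants (positive: higher with RPL10A-STAMP) against transcript GC content (%), with the tested genes in grey and the 30 postsynaptic density genes in colour, red where past the threshold. Points slope downwards from *Homer1* at the upper left to *Begain* at the lower right. *Shank3* and *Dlgap3*, picked after their values were seen, lie near 0 at a GC content like that of *Shank1*.

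After each library's trend with GC content was removed, 7 of the 30 genes were called, where 8.26% of the 7921 genes were. *Begain* (-1.60, limma adjusted p = 0.00802), *Shank1* (-0.79, limma adjusted p = 0.0269), *Nrgn* (-0.75, limma adjusted p = 0.0284) and *Ppp1r9b* (-0.62, limma adjusted p = 0.0284) remained called in that fit. *Lrrc7* (1.14, limma adjusted p = 0.0281) and *Arhgef7* (0.70, limma adjusted p = 0.0278) remained called in the other direction. *Homer1* kept its direction at 0.62 and missed the threshold (limma adjusted p = 0.0574), *Agap2* was at -0.19 and *Baiap2* at -0.20. *Dlg3* was called in this fit only, at 0.54 (limma adjusted p = 0.0404). This removal used the same transcript per gene, which for *Lrrc7* lacks a 3′ untranslated region. The part of GC content in the differences was not tested beyond this removal.

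**Figure D5:**
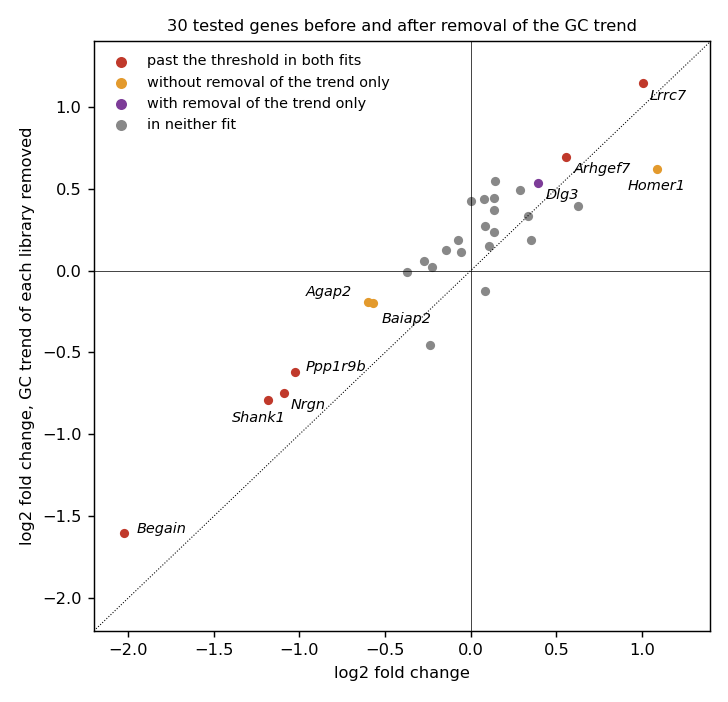
Log2 fold change of the 30 tested genes without (horizontal) and with (vertical) removal of each library's GC trend, with the dotted line marking equal values. Red genes were past the threshold in both fits, orange in the first only, purple in the second only and grey in neither, and *Begain* stayed the lowest at -1.60.

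Other synaptic genes were set beside them from a pair of lists, also chosen with earlier results of these data known. Of 83 PSD partners (glutamate receptors, adhesion proteins, kinases and other PSD proteins that are not members), 78 were tested, 7 were higher with RPL10A-STAMP and 10 with RPL22-STAMP, which is 21.8% called, with a median log2 fold change of -0.11. The 3 called genes of largest size were the dynein light chain genes *Dynll1* (-2.19) and *Dynll2* (-1.14), whose products bind SAPAP proteins, and the adhesion receptor gene *Adgrb3* (1.98). Of 55 presynaptic genes, 53 were tested, 2 were higher with RPL10A-STAMP and 14 with RPL22-STAMP, 30.2% in all, with a median of -0.24. The 4 of largest size were *Ppfia4* (-1.60), *Slc17a6* (1.48), *Doc2a* (-1.05) and *Syt7* (-1.01). For the PSD scaffold and signalling genes the share called was 30% and the median 0.08, and the difference between the lists was not tested.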

How the data were processed

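The 6 bulk libraries comprised 3 replicates of each variant. For each library the authors deposited 1 ratio per gene, EPR, not scaled between libraries. They had removed indices from single-end reads (cutadapt), mapped to mm10 with STAR while keeping multi-mapping reads, obtained edits from SAILOR and read numbers from featureCounts, and divided the former by the latter. Their gene annotation is not given in the sources used here. Of 31053 genes, 30934 were named by GENCODE M21.

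EPR was scaled to a common median across libraries (the geometric mean of the 6 medians), using the 8046 genes above 0 in every library. Then log2(EPR + 0.01) was fitted with limma 3.58.1 (R 4.3.3, eBayes with trend), with Benjamini-Hochberg adjustment over the 8046 genes and a threshold of 0.05. The procedure was tested on simulated data. Trends with GC content were fitted for every library as natural splines (4 degrees of freedom) and subtracted. Tables and plots were made with Python 3.11.15, pandas 2.3.3, scipy 1.17.1 and matplotlib 3.10.9.

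Full statistics were given for called members, per-library values also for the 3 highest and 3 lowest members by mean EPR, and up to 4 called genes were named per context list. A gene named by this rule is not reported here. The members and the lists were chosen with earlier results of these data known. Alternatives covered the pseudocount, scaling, filter, variance trend, replicate block, GC content, transcript length and the omission of single libraries.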

Additional observations from a re-analysis of the deposited data

How the results depend on the processing

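All 9 called members kept their direction under the 18 alternatives, and *Begain* alone was called under every one. *Shank1*, *Nrgn* and *Ppp1r9b* were called under 17, *Homer1* under 16, *Lrrc7* under 9, *Baiap2* under 8, *Agap2* under 7 and *Arhgef7* under 6.

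Over all tested genes 1149 were called in the fit reported, 754 with genes above 0 in at least 3 libraries, 569 with genes above 0 in at least 1 and 654 with the GC trend removed, and leaving out 1 library gave 355 to 780. Of the members, 5 were called with genes above 0 in at least 1 library, and leaving out 1 library gave 5 to 8. Without RPL22-STAMP replicate 1 there were 8, and without any other library 5, *Begain*, *Homer1*, *Nrgn*, *Ppp1r9b* and *Shank1*. Higher with RPL10A-STAMP, 1 member was called under either wider filter and 1 to 3 with a library left out, and higher with RPL22-STAMP 4 to 5 with a library left out.

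After scaling, deviations from the group means correlated at 0.0437, 0.0464 and -0.00546 between the libraries numbered 1, 2 and 3. A correlation across genes leaves out any shift shared by all genes of a library, with or without scaling. These values therefore describe only deviations that differ between genes, and these were nearly unrelated. They cannot decide whether libraries of the same number belong together. Replicate 1 had the lowest median EPR with both variants (0.0120 and 0.00907), and a shared origin was not tested. With the replicate block 603 genes and 5 members were called, 1 of them higher with RPL10A-STAMP. With the block and the GC trend removed, 245 genes and 1 member were called, *Begain*, with 0 members higher with RPL10A-STAMP (limma; 9 at an unadjusted p under 0.05) and 1 with RPL22-STAMP.

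The median log2 fold change of the members was 0.28 without scaling, where that of all genes was 0.18, and -0.035 with the length trend removed. It ran from -0.0087, without RPL22-STAMP replicate 3, to 0.094 with 1 library left out. Without scaling, 88.1% of all calls were higher with RPL10A-STAMP, beside 59.6% with it, and 4 members were called in each direction.

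Of the uncalled members, 9 changed sign under some alternative. Without scaling these were *Dlg4* (0.11), *Dlgap3* (0.18), *Shank2* (0.012), *Iqsec1* (0.16) and *Sipa1l1* (0.13). With the GC trend removed, with or without the block, they were *Dlg2* (-0.13), *Dlg4* (0.13), *Dlgap3* (0.42), *Shank2* (0.023), *Iqsec1* (0.19), *Sipa1l1* (0.11) and *Synpo* (0.061). With the length trend removed they were *Dlg2* (-0.063) and *Kalrn* (-0.030), with quantile normalization *Dlg2* (-0.049) and *Dlgap3* (0.0063), and with a pseudocount of 0.1 *Dlgap3* (0.00072). Leaving out 1 library gave -0.16 to 0.13 for *Dlgap3* and -0.023 to 0.21 for *Dlgap4*. The cause of these changes was not tested. Unknown depth, the lack of a library without an editor and 3 libraries per variant limit the precision of every value.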
